A study of Mus musculus with 3 samples.

Results

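The heat shock chaperones described here are Hspa1a, Hspa1b, Dnajb1, Hsp90aa1, Hsph1, Hspe1, Hspb1, Hspa8 and Hspd1. They were taken by their symbols in the deposited gene table and are 9 of the 32285 genes counted. All 9 symbols and gene identifiers matched the GENCODE annotation of GRCm38. Their molecules were summed by cell class in 3 single-cell RNA libraries from mouse back skin, with 1 library for each group. Piezo1 encodes a mechanically gated cation channel.

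The Piezo1iKO library of 2 weeks came from a C57BL/6 mouse line with genotype K5-Cre-er, 2 floxed Piezo1 alleles and 1 floxed Td allele, at postnatal day 62. The Piezo1iKO library of 3 weeks carried K5-Cre-er, 2 floxed Piezo1 alleles and 2 floxed Td alleles, at postnatal day 71. The control library carried K5-Cre-er, 1 floxed Piezo1 allele and 1 floxed Td allele, at postnatal day 62. All groups received tamoxifen from postnatal day 48 to 52, so the controls carried the driver and the drug as well. The K5 promoter drives the recombinase in keratin 5-expressing epithelium, and a control of the older age was not analysed here, so age, the Td genotype and time since deletion cannot be told apart between 3 weeks and the other libraries. The number of mice behind a library is not given. All skin was digested with 2.5 mg/ml collagenase I for 2 hours at 37 degrees and then with 0.25% trypsin for 7 minutes, before 10x Genomics 3' v3.1 library preparation.

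The heat shock system keeps proteins folded. Constitutive and inducible HSP70 proteins bind exposed hydrophobic stretches with the help of J-domain partners and nucleotide exchange factors, HSP90 finishes the folding of kinases and hormone receptors, small heat shock proteins hold unfolded chains, and HSP60 with HSP10 forms a folding chamber in mitochondria. Transcription factor HSF1 induces many of these genes through repeats of nGAAn in alternating orientation, and HSPB1 is known as an abundant protein of differentiating epidermis. Enzymatic digestion at warm temperature is known to induce heat shock and immediate early transcripts in dissociated tissue.

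Hspa1a and Hspa1b are neighbouring genes of a single exon on chromosome 17, at chr17:34969190-34972156 and chr17:34956436-34959238 of GRCm38, both on the minus strand and 10.0 kb apart. Hspe1 at chr1:55088132-55091307 on the plus strand and Hspd1 at chr1:55077835-55088243 on the minus strand run away from each other, and the annotated genes share 112 bases at their heads. The promoters of the HSP70 pair are shown because their letters are nearly the same while the genes ranked the cell classes differently, and that of Hspe1 because it serves a divergent pair and holds the repeat of HSF1 sites. Each sequence runs 5' to 3' on the strand of its gene, from 250 bases before to 50 bases after the start (RefSeq, GRCm38.p6), at chr17:34972107-34972406 for Hspa1a, chr17:34959189-34959488 for Hspa1b and chr1:55087898-55088197 for Hspe1. Capitals mark GAA and TTC units that stand in alternating orientation with a spacer of 2 bases.
Hspa1a promoter: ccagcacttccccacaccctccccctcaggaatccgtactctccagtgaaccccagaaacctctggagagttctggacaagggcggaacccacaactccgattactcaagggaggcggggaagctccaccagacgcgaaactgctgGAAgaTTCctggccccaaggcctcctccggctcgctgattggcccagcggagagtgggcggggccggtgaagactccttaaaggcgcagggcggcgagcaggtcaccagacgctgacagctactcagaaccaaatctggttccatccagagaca
Hspa1b promoter: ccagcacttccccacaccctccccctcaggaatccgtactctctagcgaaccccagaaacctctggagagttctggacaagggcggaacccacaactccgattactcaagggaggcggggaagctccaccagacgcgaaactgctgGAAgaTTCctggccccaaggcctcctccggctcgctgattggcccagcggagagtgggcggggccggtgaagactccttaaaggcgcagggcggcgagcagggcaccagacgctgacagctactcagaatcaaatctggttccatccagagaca
Hspe1 promoter: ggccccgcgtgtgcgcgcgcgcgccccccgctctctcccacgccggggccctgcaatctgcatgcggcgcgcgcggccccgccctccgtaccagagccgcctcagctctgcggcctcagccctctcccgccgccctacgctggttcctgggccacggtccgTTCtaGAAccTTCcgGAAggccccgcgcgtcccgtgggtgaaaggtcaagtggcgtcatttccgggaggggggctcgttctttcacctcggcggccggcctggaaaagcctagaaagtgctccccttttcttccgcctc

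The Hspa1a and Hspa1b windows were 98.7% identical and differed at 4 of 300 positions. Both held 1 GAANNTTC, a word found in 7.86% of all 32851 RefSeq promoter windows of this length. A longer run of 3 units was searched as GAANNTTCNNGAA and, for the other strand, TTCNNGAANNTTC, and every match also contains the shorter words GAANNTTC and TTCNNGAA. It stood in 0.603% of windows and in 179 of 27025 genes with a window. Among the 7 members with a window, 3 held it, namely Hsph1, Hspe1 and Hspd1. In the Hspe1 promoter printed above, both letter forms overlap, starting 89 and 84 bases before the start, and the same letters lie in a window of Hspd1, which shares 285 bases with it. The windows of Hspa1a, Hspa1b, Dnajb1 and Hspb1 did not hold this word, which says only that these letters are not there. Hsp90aa1 and Hspa8 are not among the promoters used here.

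Reads at the end of the transcript can tell the HSP70 pair apart. The whole annotated transcripts were 86.3% identical, but their last 400 bases were 55.8% identical and shared no identical run longer than 10 bases. For Hspa8 the last 400 bases matched 7 annotated pseudogenes at 95% identity or more over at least 90 bases, for Hspb1 1 pseudogene and for Hspe1 1 further gene model, so those 3 counts may have lost or gained reads at such copies. Whether intron reads were counted is not given in the sources used here.

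The libraries held 11144 barcodes for Piezo1iKO at 2 weeks, 11186 for Piezo1iKO at 3 weeks and 5621 for control, of which 9568, 9637 and 4899 cells in that order were kept, at a median of 7502, 8793 and 9985 molecules (unique molecular identifiers, UMIs) per cell. Clustering gave 31 clusters and 16 classes named by likeness to markers, and 12 classes had at least 50 cells in each library. Some clusters stayed unnamed and belong to no class, so orders over classes leave them out. Among them were keratinocytes led by Pthlh (537, 177 and 148 cells in the same order) and by Nppc (262, 157 and 91). Piezo1 itself had 27.7 CPM (counts scaled to a common total per class and library) in epithelial cells of Piezo1iKO at 2 weeks and 15.2 CPM at 3 weeks, against 35.02 CPM in control. It was also lower in the cells outside the epithelium, at 52.7 and 38.9 CPM in the Piezo1iKO libraries at 2 and 3 weeks, against 63.1 CPM in control. The labels do not say which exons are floxed, so reads from the 3' end may lie outside the deleted stretch and this is a limited check of the genotypes. Only 66 barcodes occurred in more than 1 library, and leaving them out changed no ratio below by more than its counting interval.

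Levels are given as CPM of the summed UMIs of a class. These count molecules at the 3' end and are not divided by gene length, so levels are compared between classes and libraries and not between genes. With 1 library per group no test of a condition is possible. Intervals are exact at 95% and cover counting error only, not the spread between cells or between mice. A ratio is called higher or lower at 1.5-fold, for members with at least 50 UMIs over both libraries and at least 50 CPM in 1 of them, in classes with at least 100 cells in each. A lower level in summed cells cannot be told apart from fewer expressing cells without the shares of cells, which are given for the main results.

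The levels of several chaperones differed widely between cell classes. Across the 12 classes, mean levels over the 3 libraries spanned 52.5-fold for Hspb1, 47.6-fold for Hspa1a, 10.3-fold for Hspa1b and 9.13-fold for Dnajb1, but 4.27-fold for Hspa8, 3.19-fold for Hsph1, 3.08-fold for Hsp90aa1, 2.38-fold for Hspe1 and 1.85-fold for Hspd1. Hspb1 and Dnajb1 were highest in keratinocytes and Hspa1a in cells of the dermis. The plot of levels by class shows libraries of 1 class close together in some classes and far apart in others. Hspa1a in melanocyte-like cells had 40.5 and 198.2 CPM in Piezo1iKO at 2 and 3 weeks and 40.8 CPM in control, and Hspb1 in Schwann-like cells had 833 and 474 CPM at 2 and 3 weeks and 251 CPM in control.

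**Figure D1:**
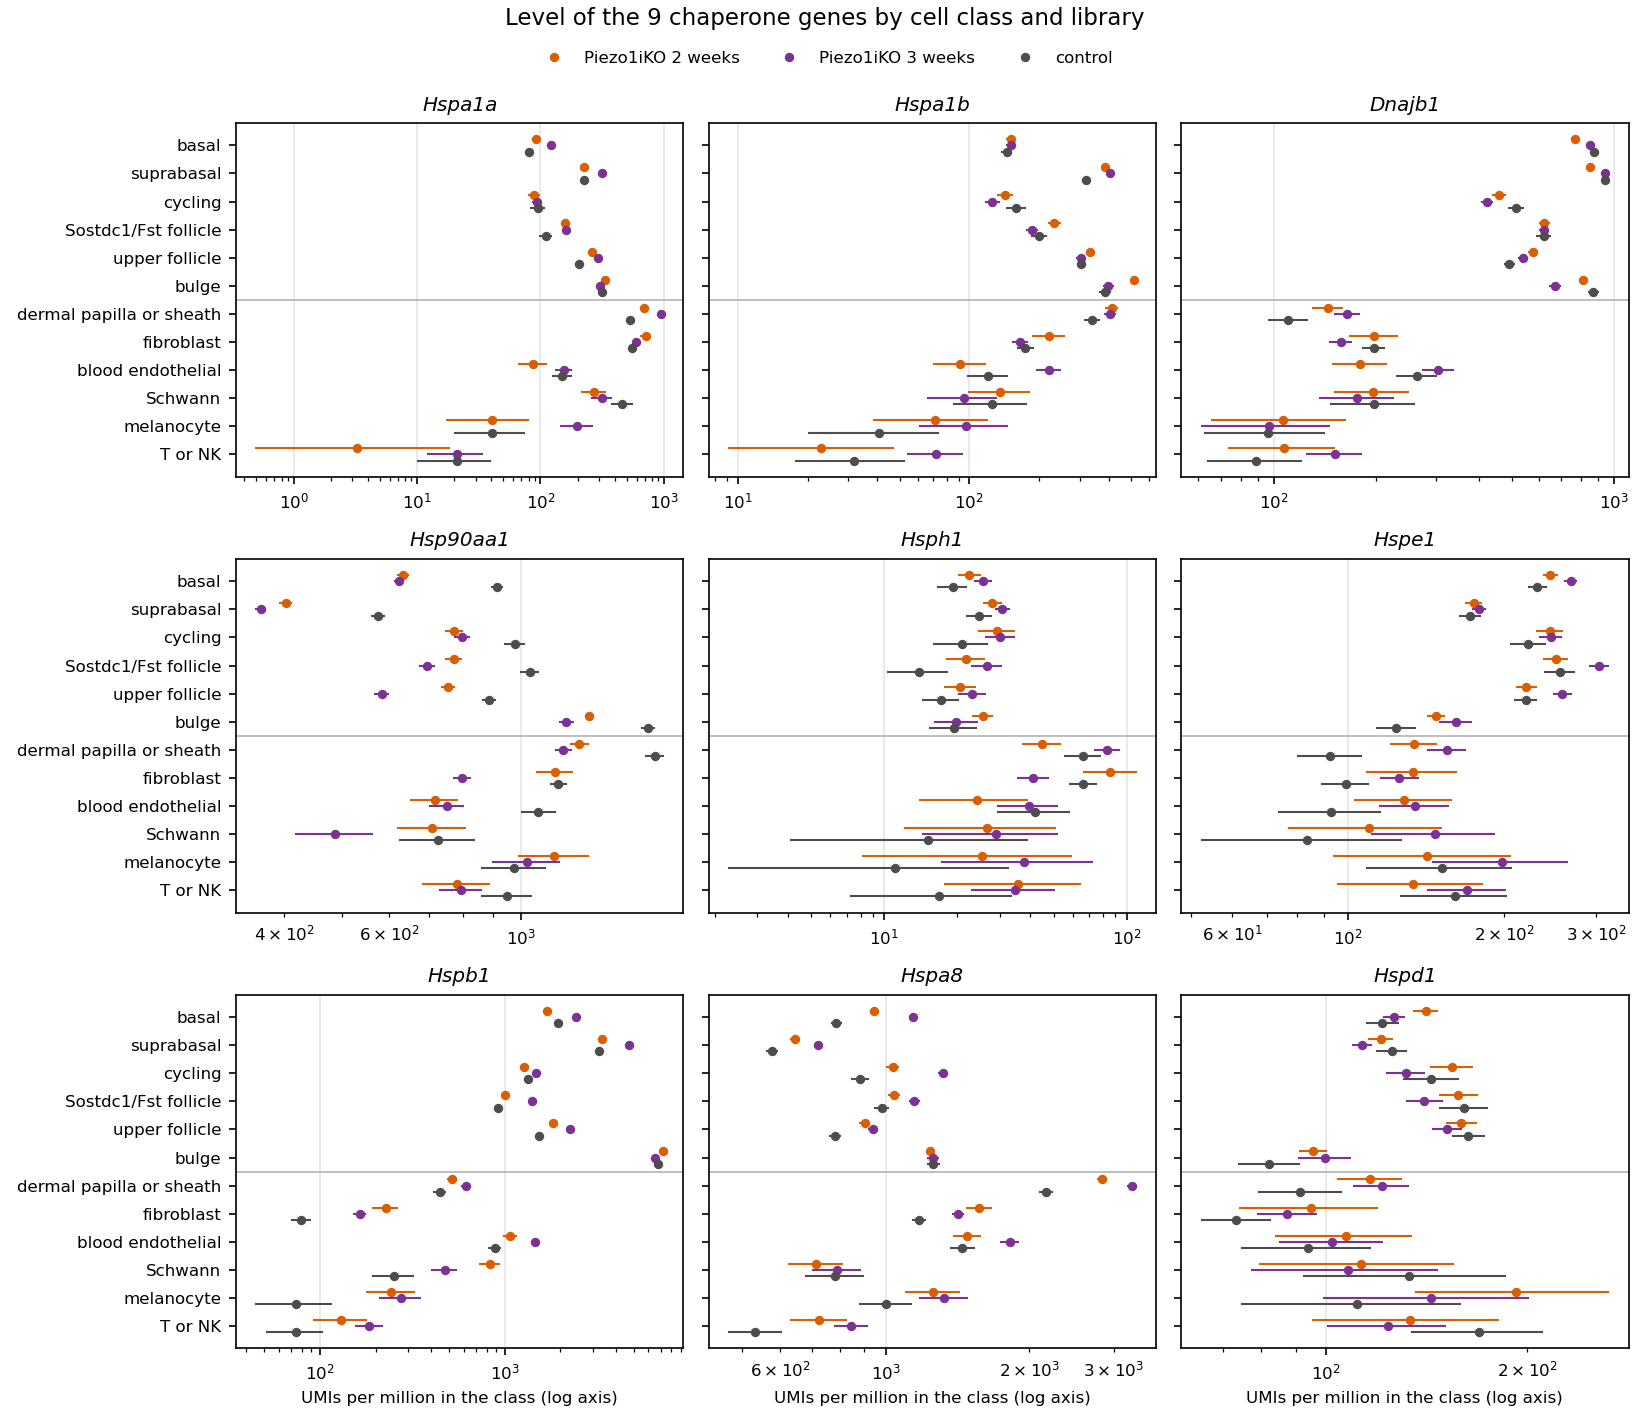
CPM on a log axis of each of the 9 members in 12 cell classes, with 1 point per library and exact Poisson 95% intervals, the horizontal line parting keratinocyte classes from the others. Hspb1 lies between 6495 and 7170 CPM in bulge-like cells of the 3 libraries and between 74.0 and 184.6 CPM in T or natural killer-like cells.

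Hspa1a and Hspa1b encode the stress-inducible cytosolic HSP70. Hspa1a had 684 CPM in dermal papilla or sheath-like cells of Piezo1iKO at 2 weeks and 950 CPM at 3 weeks, against 530 CPM in control. Fibroblast-like cells had 709 and 594 CPM at 2 and 3 weeks, against 554 CPM in control. These were the 2 highest classes, and their libraries overlap each other but not those of the third class, Schwann-like cells, with 270 and 313 CPM at 2 and 3 weeks against 460 CPM in control. Interfollicular basal-like keratinocytes stood far lower, at 91.4 and 122 CPM in Piezo1iKO at 2 and 3 weeks and 80.7 CPM in control. T or natural killer-like cells were lowest, with 3.25 and 21.1 CPM at 2 and 3 weeks and 21.2 CPM in control.

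Hspa1b followed another order. Among the 12 classes it was highest in bulge-like keratinocytes, the stem cell compartment of the resting follicle. These had 513 and 399 CPM in Piezo1iKO at 2 and 3 weeks and 386 CPM in control. Dermal papilla or sheath-like cells followed with 412 and 406 CPM, against 340 CPM in control, and suprabasal-like keratinocytes with 387 and 404 CPM, against 320 CPM in control. The libraries of these 3 classes overlap, so their order is not resolved. An unnamed epithelial cluster led by Gm26802, with a median of 1620 UMIs per cell, had 643 and 462 CPM at 2 and 3 weeks and 298 CPM in control. Fibroblast-like cells, high for Hspa1a, had 220 and 166 CPM of Hspa1b at 2 and 3 weeks and 175 CPM in control.

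The balance within the pair differed between keratinocytes and the main dermal classes. Hspa1a made up 39.2% and 44.7% of the Hspa1a and Hspa1b UMIs in all epithelial cells of Piezo1iKO at 2 and 3 weeks, and 41.0% in control. Outside the epithelium it made up 63.6% and 70.8% at 2 and 3 weeks, and 68.1% in control, with most of these UMIs from dermal papilla or sheath-like and fibroblast-like cells. The share in fibroblast-like cells was 76.3% and 78.1% at 2 and 3 weeks, and 76.1% in control, so the 3 libraries lay within 3 percentage points of each other there. In dermal papilla or sheath-like cells it was 70.1% (exact binomial interval 68.8 to 71.3%) in Piezo1iKO at 3 weeks, against 62.4% at 2 weeks and 60.9% (58.7 to 63.1%) in control. These intervals treat each UMI as independent. Few of these cells carried most Hspa1a UMIs, as given below, so the intervals are too narrow for the spread between cells. The share without those cells was not computed. The plot of the Hspa1a share by class shows all 6 keratinocyte classes below 50% in every library. Other classes outside the epithelium were not all high. Blood endothelial-like cells had 48.8% and 41.1% (36.7 to 45.7%) at 2 and 3 weeks and 55.5% in control, while the T or natural killer-like class had 12.5% and 22.7% at 2 and 3 weeks and 40.0% in control, from 1, 17 and 10 UMIs of Hspa1a. Melanocyte-like cells (36.4%) and Langerhans or dendritic-like cells (43.5%) were below 50% at 2 weeks. Sebaceous gland-like cells, which are epithelial, had 50.1% at 3 weeks and 53.7% in control.

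**Figure D2:**
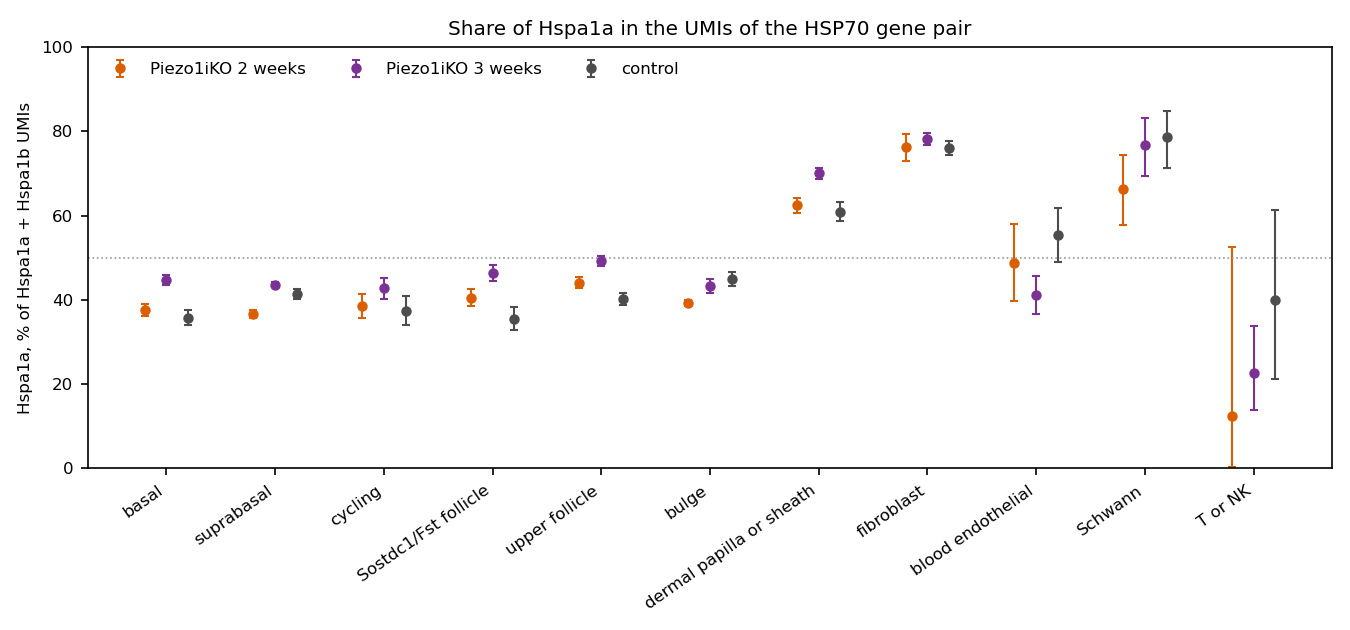
Percent of Hspa1a plus Hspa1b UMIs that are Hspa1a, by cell class and library, with exact binomial 95% intervals. The 6 keratinocyte classes lie between 35.6% and 49.2%, and fibroblast-like cells between 76.1% and 78.1%.

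Hspa1a was carried by few cells where it was most abundant. In dermal papilla or sheath-like cells the 10% of cells with most Hspa1a held 71.7% of its UMIs in Piezo1iKO at 2 weeks, 81.9% at 3 weeks and 86.6% in control. After thinning each cell to 2000 UMIs, 37.2% and 35.6% of these cells had an Hspa1a UMI in Piezo1iKO at 2 and 3 weeks, against 23.5% in control, and unthinned shares were 51.6% and 44.8%, against 35.1% in control. Fibroblast-like cells were more even, with 54.4% and 53.7% of thinned cells positive at 2 and 3 weeks, and 47.7% in control. T or natural killer-like cells, which had the lowest level, gave 1.32% and 2.50% of thinned cells at 2 and 3 weeks, and 3.92% in control, at median depths of 3320, 3670 and 4164 UMIs. The shares in both dermal classes, at median depths of 3576 to 8642 UMIs, lay far above those in T or natural killer-like cells.

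Dnajb1 encodes the J-domain partner of inducible HSP70. It was keratinocyte-rich, with 848 and 943 CPM in suprabasal-like cells of Piezo1iKO at 2 and 3 weeks and 944 CPM in control. Basal-like cells had 766 and 852 CPM at 2 and 3 weeks and 872 CPM in control, and bulge-like cells 812 and 670 CPM, against 869 CPM in control. The libraries of these 3 classes overlap. Every keratinocyte class lay at 423 CPM or above and every other class of the 12 at 304 CPM or below, so this partner of HSP70 was higher in keratinocytes, where the Hspa1a share was below 50%.

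Hspb1 encodes the small heat shock protein HSP27 (HSP25 in mouse), an ATP-independent holdase. It was highest in bulge-like cells, with 7170 and 6495 CPM in Piezo1iKO at 2 and 3 weeks and 6755 CPM in control, and between 95.01% and 96.2% of its thinned cells held a UMI in the 3 libraries. Suprabasal-like cells had 3364 and 4704 CPM at 2 and 3 weeks, and 3245 CPM in control. Within them it was higher in the cluster led by Lor, Lce1m and Flg2, genes of the granular layer, which had 5821 and 8157 CPM at 2 and 3 weeks and 6482 CPM in control. The cluster led by Mt4 and the spinous keratin Krt1 had 1733 and 2061 CPM at 2 and 3 weeks and 1424 CPM in control. Blood endothelial-like cells were the highest of the other classes with 1073 and 1467 CPM at 2 and 3 weeks, and 885 CPM in control.

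Hsp90aa1 encodes the inducible cytosolic HSP90. Within suprabasal-like cells it ran opposite to Hspb1, with 254 and 245 CPM in the cluster led by Lor in Piezo1iKO at 2 and 3 weeks and 353 CPM in control, while the cluster led by Mt4 had 501 and 458 CPM at 2 and 3 weeks and 699 CPM in control. Over all classes it was highest in bulge-like and in dermal papilla or sheath-like cells, which overlap. Hspa8 encodes HSC70, the constitutive cytosolic HSP70. Dermal papilla or sheath-like cells stood alone at the top for Hspa8, with 2838 and 3278 CPM at 2 and 3 weeks and 2169 CPM in control. Suprabasal-like cells were at the bottom with 645 and 720 CPM, against 578 CPM in control, and neighbours in the order between overlapped.

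Hsph1 encodes HSP110, a nucleotide exchange factor for HSP70. It was sparse, between 11.1 and 85.8 CPM in all 12 classes, and only dermal papilla or sheath-like and fibroblast-like cells reached the level needed for a ratio. Hspe1 and Hspd1 encode HSP10 and HSP60 of the mitochondrial chaperonin. Both were fairly even over the 12 classes, from 83.6 to 303.8 CPM for Hspe1 and 73.4 to 192.4 CPM for Hspd1. Sebaceous gland-like cells, with 18, 114 and 99 cells in Piezo1iKO at 2 weeks, 3 weeks and control, were outside the 12 classes and stood apart. They had 747 and 724 CPM of Hspe1 at 2 and 3 weeks and 760 CPM in control, and 629 and 619 CPM of Hspd1 at 2 and 3 weeks and 755 CPM in control.

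Across 42 class and library sums with at least 50 cells, Dnajb1 went most closely with Hspb1 among the members (Pearson r of log2 CPM 0.90), followed by the chaperonin pair Hspe1 and Hspd1 (0.81) and by Hspa1a with Hspa1b (0.78). Hsp90aa1 and Hspe1 ran against each other (-0.44). The sums come from 3 libraries and several classes each, so they are not independent and the values are descriptions. Of 6001 genes outside the members, AI661453, Dennd2c, Itpkc, Dsg3 and Sfn were most like Dnajb1 (0.91 to 0.94) and Bok, Adipor1, Fgfr3, Palmd and Arhgef5 most like Hspb1 (0.85 to 0.91). Dsg3 encodes a desmosomal cadherin and Sfn the stratifin 14-3-3 protein of keratinocytes. For Hspa1a they were Wdfy3, Nupr1, Rhob, Axl and Lrp1 (0.76 to 0.79), and for Hsp90aa1 Crebbp, Pcf11, Zfp131, Mlxip and Arid4b (0.74 to 0.76).

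The comparison of Piezo1iKO at 2 weeks with the control of the same age covered 8 classes. Hspb1 in fibroblast-like cells was the only member called, with 227 CPM in Piezo1iKO against 78.9 CPM in control, a ratio of 2.87 (2.37 to 3.47) in a class where 13.3% of all genes were higher. Of the 72 pairs of a member and a class, 66 had enough UMIs, so 1 was higher and 0 were lower. Over all genes in these classes 4.89% of pairs were higher and 6.42% lower, beside 1.52% and 0% of the members' pairs. Their median log2 ratio was 0.09.

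Below that size the members leaned in different directions. Hsp90aa1 had a ratio under 1 with its interval below 1 in 7 of 8 classes, between 0.695 and 0.986. In basal-like cells it had 634 CPM in Piezo1iKO at 2 weeks, against 912 CPM in control, and in bulge-like cells 1305 CPM, against 1638 CPM in control. Hspa8 had its interval above 1 in 7 of 8 classes, with ratios between 0.985 and 1.34. Hspa1a and Hspa1b had their intervals above 1 in 5 and 6 of 8 classes, at most at 1.43 for Hspa1a in the keratinocytes led by Sostdc1 and Fst and 1.33 for Hspa1b in bulge-like cells. The Hspa1a ratio of 1.43 turned to 0.836 when the chaperone lists were kept among the clustering genes. Dnajb1 was mixed, with the interval above 1 in 2 classes and below 1 in 4. How many of all genes had intervals clear of 1 was not counted, and at many UMIs an interval is narrow. By class, the Hspa8 ratio stood above those of 55.8 to 91.6% of all genes with enough UMIs. The same range was 6.99 to 40.2% for Hsp90aa1, 45.2 to 95.3% for Hspa1a and 36.6 to 93.5% for Hspa1b.

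The comparison of Piezo1iKO at 3 weeks with control covered 9 classes and shares its control library with the one at 2 weeks. Of 81 pairs 73 had enough UMIs, and 10 were higher and 3 lower. Over all genes 6.83% of pairs were higher and 12% lower, beside 13.7% and 4.11% of the members' pairs. The median log2 ratio over the members was 0.14. The 10 higher pairs were in dermal papilla or sheath-like cells (Hspa1a, Hspe1 and Hspa8), T or natural killer-like cells (Hspa1b, Dnajb1, Hspb1 and Hspa8), fibroblast-like cells (Hspb1), basal-like cells (Hspa1a) and keratinocytes led by Sostdc1 and Fst (Hspb1). These 10 pairs were thus spread over 5 classes. The 3 lower pairs were Hsp90aa1 in suprabasal-like and upper follicle-like keratinocytes and Hsph1 in fibroblast-like cells. The plot of ratios by member at 3 weeks against control shows all 9 classes of Hsp90aa1 below 1.

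**Figure D3:**
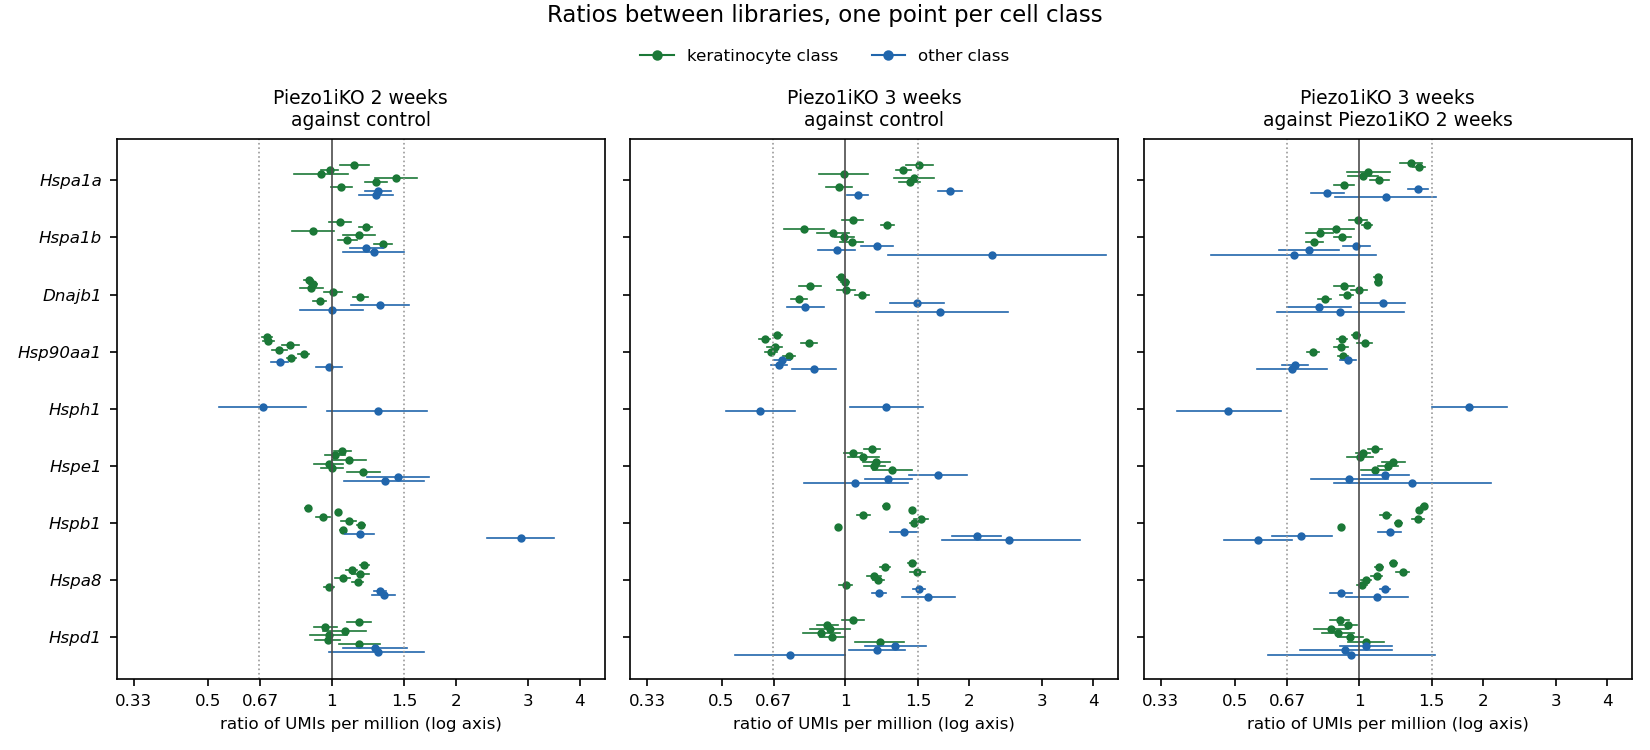
Ratio of CPM on a log2 axis for each member, with 1 point per class that had enough UMIs, in Piezo1iKO at 2 weeks over control, Piezo1iKO at 3 weeks over control and 3 weeks over 2 weeks, green for keratinocyte and blue for other classes, with dotted lines at 1.5-fold. At 3 weeks Hsp90aa1 lies between 0.636 and 0.837 of control in 9 classes, and Hspa8 between 1.001 and 1.59.

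Hsp90aa1 leaned to lower levels in the classes compared. Its ratio at 3 weeks was below 1 with its interval below 1 in 9 of 9 classes. Depending on the class, this ratio stood above those of 6.101 to 31.60% of all genes with enough UMIs, so other genes were lower still. All genes leaned the same way at 3 weeks, with 12% of pairs lower and 6.83% higher. How many of them had intervals below 1 was not counted. Suprabasal-like cells had 365 CPM in Piezo1iKO at 3 weeks and 403 CPM at 2 weeks, against 575 CPM in control, a ratio of 0.636 (0.618 to 0.655) at 3 weeks, where 12% of all genes were lower. Upper follicle-like cells had 584 CPM at 3 weeks and 754 CPM at 2 weeks, against 884 CPM in control, a ratio of 0.661 (0.639 to 0.683) at 3 weeks, where 12.8% of all genes were lower. The control library was the highest of the 3 in both classes.

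Basal-like cells had 623 CPM of Hsp90aa1 at 3 weeks and 634 CPM at 2 weeks, against 912 CPM in control, and bulge-like cells 1193 and 1305 CPM, against 1638 CPM in control. Melanocyte-like cells, which had too few cells for a ratio, went the other way, with 1025 CPM at 3 weeks and 1139 CPM at 2 weeks, against 974 CPM in control. The cluster mix inside a class bears on the size: the 2 clusters of upper follicle-like cells had 773 and 400 CPM at 3 weeks, against 1105 and 524 CPM in control, and weighing them equally gave 0.720 in place of 0.661. In suprabasal-like cells the same weighting gave 0.668 in place of 0.636, just short of the threshold. Over 12 other settings the ratio stayed below 1 in both classes, between 0.554 and 0.668 in suprabasal-like and between 0.473 and 0.740 in upper follicle-like cells, where 7 of the 12 kept the call.

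**Figure D4:**
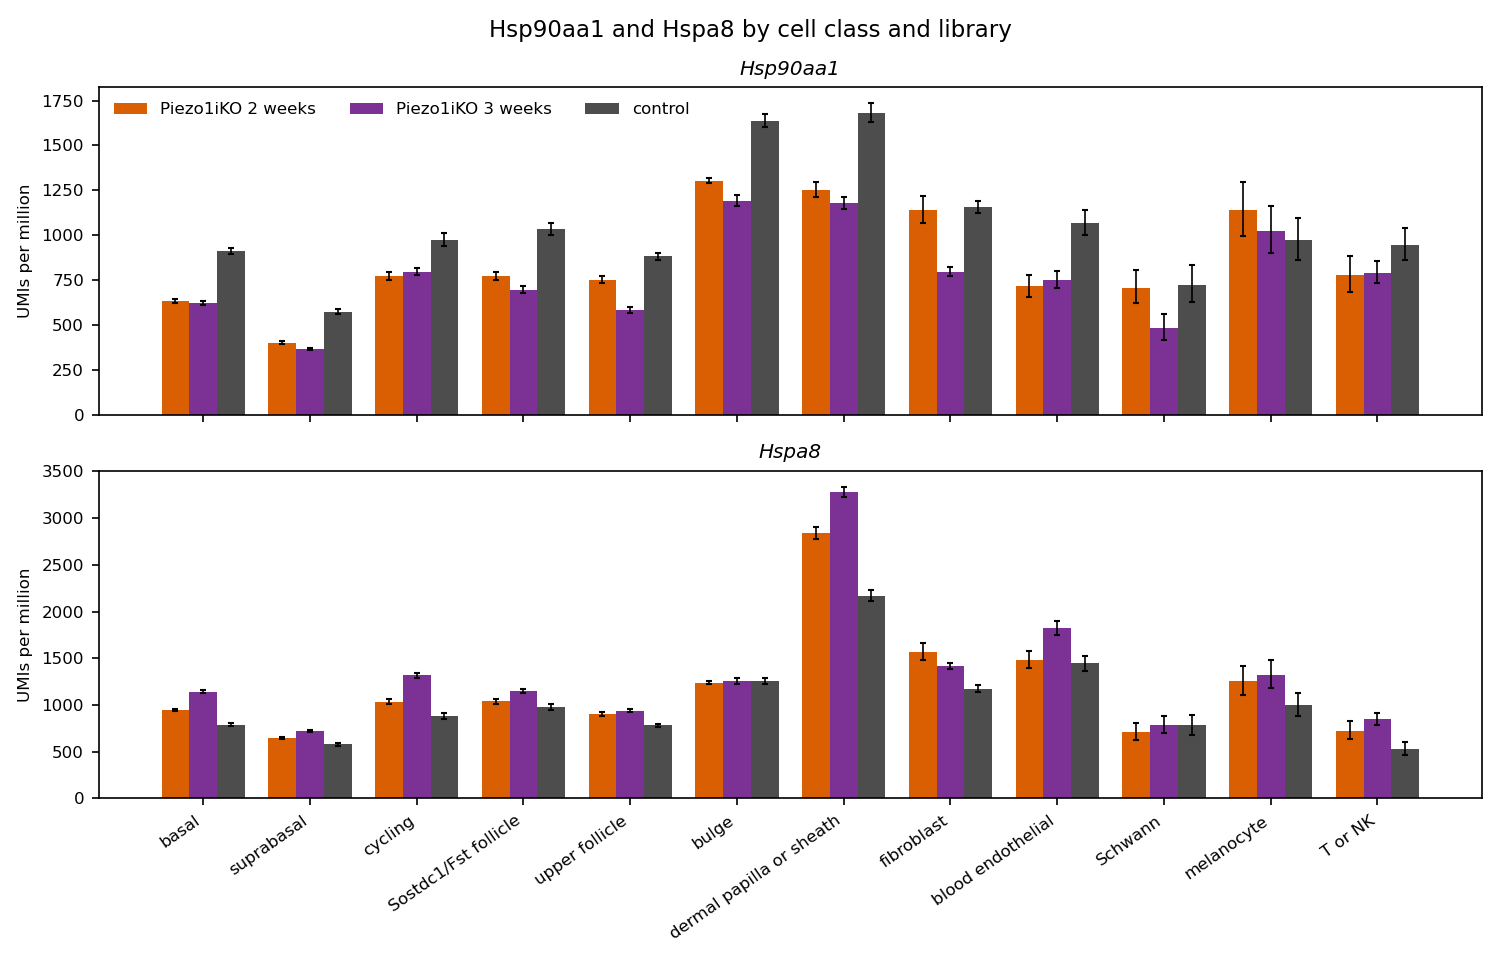
CPM of Hsp90aa1 and of Hspa8 in 12 cell classes and 3 libraries, as bars from 0 with exact Poisson 95% intervals. Control has the highest Hsp90aa1 bar in 11 of the classes, with melanocyte-like cells the exception (974 CPM), and dermal papilla or sheath-like cells have the highest Hspa8 bars, 3278 CPM at 3 weeks.

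Hspa8 leaned the opposite way, with its interval above 1 in 8 of 9 classes at 3 weeks. By class, its ratio stood above those of 60.6 to 95.8% of all genes with enough UMIs. Dermal papilla or sheath-like cells had 3278 CPM at 3 weeks and 2838 CPM at 2 weeks, against 2169 CPM in control, a ratio of 1.51 (1.46 to 1.56) at 3 weeks. T or natural killer-like cells had 846 CPM at 3 weeks and 725 CPM at 2 weeks, against 533 CPM in control, a ratio of 1.59 (1.37 to 1.84) that was 1.30 with each library clustered alone. In basal-like cells the values were 1143 CPM at 3 weeks, 945 CPM at 2 weeks and 788 CPM in control. Bulge-like cells had nearly the same level in each library, with 1258 CPM at 3 weeks, 1238 CPM at 2 weeks and 1257 CPM in control.

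Hspa1a in basal-like cells had 122 CPM at 3 weeks and 91.4 CPM at 2 weeks, against 80.7 CPM in control, a ratio of 1.51 (1.41 to 1.63) at 3 weeks where 5.04% of all genes were higher. It passed 1.5-fold in 5 of 12 other settings. Weighing the 2 basal-like clusters equally gave 1.27. The cluster led by Epgn and Itga2 had 95.9 CPM at 3 weeks and 76.0 CPM at 2 weeks, against 72.4 CPM in control, and the other cluster 157 and 120 CPM, against 126 CPM in control. In 6 of 8 classes the interval of Hspa1a lay above 1 at 3 weeks, and bulge-like cells (0.965) and cycling keratinocyte-like cells (0.990) did not exceed control. In the keratinocytes led by Sostdc1 and Fst, the ratio of 1.46 depended on the processing. It ranged from 0.662 to 1.77 over 12 other settings, with 10 of the 12 above 1. By class, the Hspa1a ratio stood above those of 49.94 to 96.35% of all genes with enough UMIs. Its paralog Hspa1b lay between 0.792 and 1.26 in every class apart from T or natural killer-like cells. In dermal papilla or sheath-like cells, however, its ratio of 1.19 turned to 0.901 as a mean over cells, 0.735 in thinned cells and 0.564 without the 1% of cells with the highest level. For 3 weeks over 2 weeks the ratio there was 0.984, and 0.450 without that 1%.

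In dermal papilla or sheath-like cells, 3 of the members were higher, where 8.59% of all genes were. Hspa1a had the ratio 1.79 (1.68 to 1.92) at 3 weeks, Hspe1 had 155 CPM at 3 weeks and 134 CPM at 2 weeks, against 92.4 CPM in control, with a ratio of 1.68 (1.43 to 1.98), and Hspa8 is given above. The Hspa1a ratio rests on few cells, since without the 1% of cells with the highest level it was 1.11, and it stayed above 1 in all 12 other settings and past 1.5-fold in 9 of them. For 3 weeks over 2 weeks the ratio was 1.39 with all cells and 0.735 without that 1%. At 2 weeks over control it was 1.29, and 2.38 in the cells without a keratin UMI. Hspe1 stayed between 1.65 and 1.81 in 12 other settings. Equal weighing of clusters, among these settings, could not move a ratio here because this class is not split into clusters. Immediate early transcripts, summed over 14 genes, stood at 37195 CPM in these cells at 3 weeks and 39177 CPM at 2 weeks, against 20462 CPM in control, and their part in the member values was not tested.

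T or natural killer-like cells could be compared at 3 weeks only, where 4 members were higher against 10.9% of all genes. Hspa1b had 71.9 CPM at 3 weeks and 22.8 CPM at 2 weeks, against 31.7 CPM in control, a ratio of 2.26 (1.27 to 4.30) from 58 and 15 UMIs. Dnajb1 had 151 CPM at 3 weeks and 107 CPM at 2 weeks, against 88.9 CPM in control, a ratio of 1.70 (1.19 to 2.48). Hspb1 had 185 CPM at 3 weeks and 130 CPM at 2 weeks, against 74.0 CPM in control, a ratio of 2.49 (1.72 to 3.71). Dnajb1 dropped below the threshold, to 1.28, in 1 of 12 other settings, and Hspb1 and Hspa1b kept the call in all 12. Equal weighing of clusters, among the 12, could not move a ratio here because this class is not split into clusters. Hspb1 and Dnajb1 are keratinocyte-rich transcripts. The sum of 5 keratins in the same cells was 1130 CPM at 3 weeks and 894 CPM at 2 weeks, against 432 CPM in control, and its part in these ratios was not tested. Hspb1 per Krt14 was 0.582 at 3 weeks and 0.455 at 2 weeks, against 0.625 in control.

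Hspb1 in fibroblast-like cells had 164 CPM at 3 weeks and 227 CPM at 2 weeks, against 78.9 CPM in control, a ratio of 2.08 (1.82 to 2.39) at 3 weeks, where 10.8% of all genes were higher. Both Piezo1iKO libraries lay above the control, but the make-up of the class differed between libraries. The cluster led by Col1a2 and Col1a1 held 52 of the 145 fibroblast-like cells at 2 weeks and 591 of 765 at 3 weeks, against 322 of 435 in control. In it Hspb1 had 76.7 and 115 CPM at 2 and 3 weeks, against 47.0 CPM in control, and in the cluster led by Coch, Fmod and Tnmd 334 and 413 CPM at 2 and 3 weeks, against 240 CPM in control. Weighing both clusters equally gave 1.43 at 2 weeks, below the threshold, and clustering each library alone gave 7.21. At 3 weeks all 12 settings kept at least 1.55.

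Keratin transcripts moved with this result as well. The 5 keratins summed to 382 and 699 CPM in fibroblast-like cells of Piezo1iKO at 2 and 3 weeks, against 191 CPM in control. In the fibroblast-like cells without any UMI of these keratins, Hspb1 had 134 CPM at 2 weeks and 147 CPM at 3 weeks, against 60.8 CPM in control, from 19, 22 and 50 UMIs in that order. These cells numbered 31, 31 and 104. In blood endothelial-like cells without a keratin UMI, Hspb1 had 937.5 CPM at 2 weeks, against 993 CPM in control, where all cells had 1073 CPM at 2 weeks and 885 CPM in control. The part of keratinocyte transcripts in the fibroblast-like difference was not tested. The plot of Hspb1 and of keratins outside the epithelium shows both side by side.

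**Figure D5:**
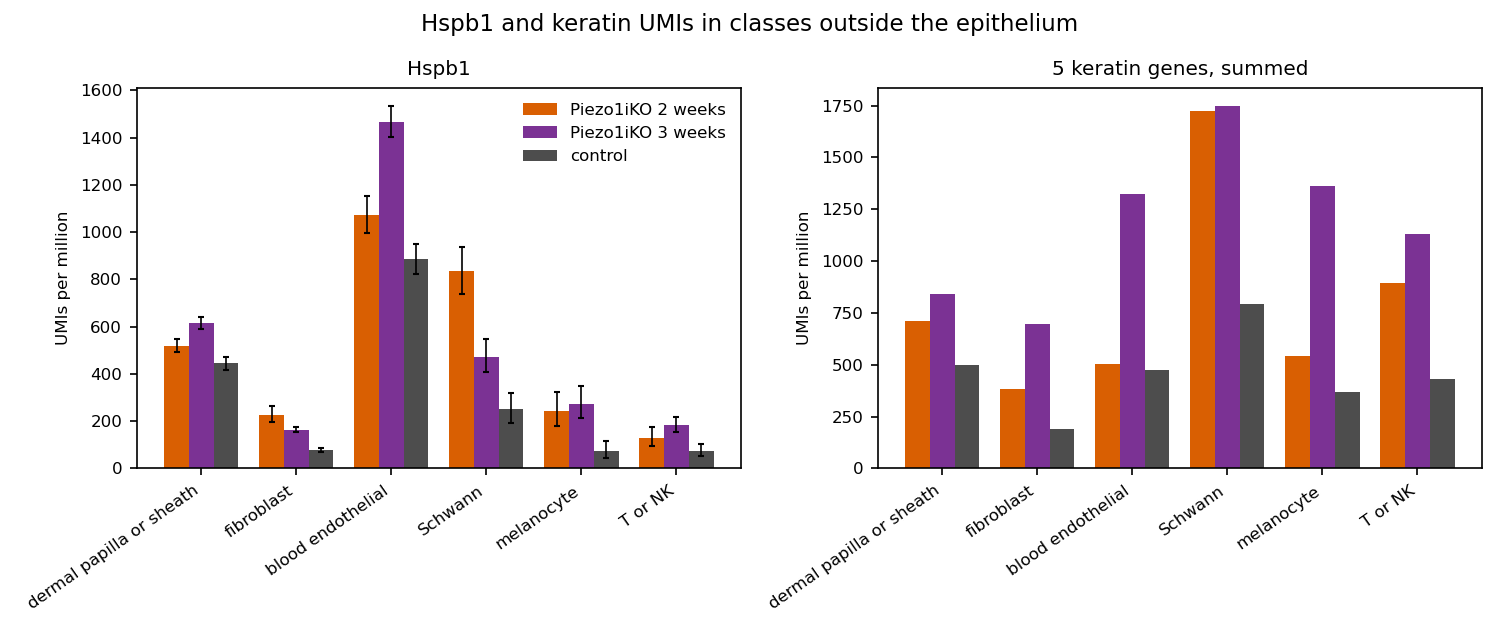
CPM of Hspb1 and of Krt5, Krt14, Krt1, Krt10 and Krt15 summed, in 6 classes outside the epithelium and 3 libraries, as bars from 0. Exact Poisson 95% intervals are drawn for Hspb1 only. In fibroblast-like cells Hspb1 stands at 227, 164 and 78.9 CPM and the keratins at 382, 699 and 191 CPM in Piezo1iKO at 2 weeks, 3 weeks and control.

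In keratinocytes Hspb1 was called only in the class led by Sostdc1 and Fst, with 1403 CPM at 3 weeks and 1009 CPM at 2 weeks, against 918 CPM in control, a ratio of 1.53 at 3 weeks, where 4.97% of all genes were higher. Over 12 other settings it lay between 1.31 and 1.62, and 5 of them kept the call. Equal weighing of clusters, among these 5, could not move the ratio because this class is not split into clusters. Suprabasal-like cells had a ratio of 1.45 and basal-like cells 2446 CPM at 3 weeks and 1703 CPM at 2 weeks, against 1951 CPM in control, so in basal-like cells the 2-week library was the lowest. Bulge-like cells, the highest class, had a ratio of 0.962 at 3 weeks.

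Hsph1 in fibroblast-like cells had 41.3 CPM at 3 weeks and 85.8 CPM at 2 weeks, against 66.4 CPM in control, a ratio of 0.621 (0.512 to 0.752) at 3 weeks, where 5.88% of all genes were lower. It kept the call in 8 of 12 other settings, between 0.466 and 0.749. The cluster led by Coch, Fmod and Tnmd had 43.7 CPM at 3 weeks and 128 CPM at 2 weeks, against 127 CPM in control, so there the 3-week library was low and the other libraries alike. The cluster led by Col1a2 and Col1a1 had 40.8 CPM at 3 weeks and 27.6 CPM at 2 weeks, against 54.4 CPM in control. The mitochondrial HSP60 gene Hspd1 was not called in any class, with ratios between 0.732 and 1.32 at 3 weeks. The UMIs of Hspe1 per UMI of Hspd1 were 1.53 and 1.74 in epithelial cells at 2 and 3 weeks, against 1.43 in control.

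Between the knockouts, 3 weeks against 2 weeks, 9 classes were compared. Of 74 pairs with enough UMIs 1 was higher and 2 were lower, against 3.49% and 4.42% of pairs over all genes, and the median log2 ratio was 0.0026. Hsph1 was higher in dermal papilla or sheath-like cells, with 83.1 CPM at 3 weeks against 45.0 CPM at 2 weeks, a ratio of 1.85 (1.501 to 2.28), where 4.39% of all genes were higher. It turned to 0.950 without the 1% of cells with the highest level. It was lower in fibroblast-like cells, with a ratio of 0.481, where 8.76% of all genes were lower. The 2 clusters of that class went opposite ways. The cluster led by Coch, Fmod and Tnmd had 43.7 CPM at 3 weeks against 128 CPM at 2 weeks. The cluster led by Col1a2 and Col1a1 had 40.8 CPM against 27.6 CPM. Hspb1 was lower in Schwann-like cells, with 474 CPM at 3 weeks against 833 CPM at 2 weeks, a ratio of 0.568, where 9.73% of all genes were lower, and it kept the call in 5 of 9 other settings. It was 0.786 without the 1% of cells with the highest level and 0.886 as a mean over cells. In the 38 Schwann-like cells of the 2-week library without a keratin UMI, Hspb1 had 101 CPM from 9 UMIs, against 833 CPM in all 122. The 5 keratins summed to 1750 CPM at 3 weeks and 1726 CPM at 2 weeks in all Schwann-like cells, and their part in the ratio was not tested.

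Other genes of the chaperone network were described from lists. Among the cytosolic co-chaperones and other genes of the HSF1 system, 12 of 140 pairs (8.57%) were higher and 0 lower at 2 weeks against control, beside 4.89% and 6.42% of pairs over all genes. At 3 weeks against control 21 of 162 (13.0%) were higher and 8 (4.94%) lower, beside 6.83% and 12% over all genes. St13, the HSC70-interacting co-chaperone, was higher in 7 of 8 classes at 2 weeks (1.43 to 1.71) and in 7 of 9 at 3 weeks (1.42 to 2.04). Fkbp4, an HSP90-binding immunophilin, was higher in 4 of 8 classes at 3 weeks (1.26 to 2.15). Hspa4, an exchange factor of the HSP110 family, was lower in 4 of 9 classes at 3 weeks (0.577 to 1.10). Hsp90ab1, the constitutive HSP90, was not called and lay between 0.830 and 0.970 at 3 weeks, beside 0.636 to 0.837 for Hsp90aa1.

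The TRiC chaperonin, which folds actin and tubulin, had 0 of 64 pairs past 1.5-fold at 2 weeks and 0 of 72 at 3 weeks against control. Over all genes 4.89% of pairs were higher and 6.42% lower at 2 weeks, and 6.83% and 12% at 3 weeks. Mitochondrial chaperones had 5 of 19 pairs (26.3%) lower at 2 weeks, all of them Hspa9 (mitochondrial HSP70), beside 6.42% over all genes, and 4 of 19 (21.1%) at 3 weeks, beside 12%. Of the endoplasmic reticulum genes, 2 of 101 pairs (1.98%) were higher and 1 (0.990%) lower at 2 weeks, beside 4.89% and 6.42% over all genes. At 3 weeks 7 of 118 (5.93%) were higher and 6 (5.08%) lower, beside 6.83% and 12% over all genes, so the share higher was near that of all genes. By size of ratio, the disulfide isomerases Pdia4 (2.42) and Pdia6 (1.92) and the secreted stress protein Manf (1.82) were higher in dermal papilla or sheath-like cells at 3 weeks. The 6 lower pairs at 3 weeks were Atf4 in 4 of 9 classes (0.608 to 0.946 over the 9) and Hyou1 (0.542) and Dnajb9 (0.608) in 1 class each. Immediate early genes had 52 of 112 pairs (46.4%) higher at 2 weeks and 69 of 126 (54.8%) higher and 1 lower at 3 weeks, beside 4.89% and 6.83% higher over all genes, with median log2 ratios of 0.49 and 0.65 against 0.09 and 0.14 for the heat shock chaperones. Hsf1 itself had 23.4 and 24.2 CPM in epithelial cells at 2 and 3 weeks, against 28.4 CPM in control.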

How the data were processed

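The deposited matrices hold raw counts of UMIs per gene and barcode, made by the authors with Cell Ranger 6.1.2 on mm10, per the submitters' processing notes. No source used here states the annotation release or whether introns were counted. Barcodes with under 500 genes (960 in Piezo1iKO at 2 weeks, 754 at 3 weeks and 363 in control) or a mitochondrial share of 15% or more (973, 954 and 415) were removed, as were 301, 356 and 123 doublets found by Scrublet in each library. Cells of the 3 libraries were normalized, reduced to 2000 variable genes without any gene of the chaperone lists, 30 principal components and 15 neighbours, and grouped by Leiden at resolution 1 (scanpy 1.11.5, leidenalg 0.10.2, Python 3.11.15). Clusters were named from marker lists with at least 3 markers found in 10% of cells and a lead of 0.25 in mean standardised log2 level, and class names are likenesses.

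Counts were summed per class and library. CPM carry exact Poisson, ratios exact conditional and shares exact binomial intervals (95%, scipy 1.17.1). UMIs correct for amplification, but intervals cover counting error only. Both CPM values had 5 added before a log2 ratio. No test was made, since each group is 1 library. All 9 members are named in each comparison; genes of other lists are named among the largest ratios of a list or for their count of classes, the second group (St13, Fkbp4, Hspa4, Hsp90ab1 and Hsf1) having been chosen after their values were seen. The genes most like 4 members were the 5 with the highest correlation. The steps were tested on simulated data.

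The members and lists were chosen with earlier results of these data known. The class led by Sostdc1 and Fst, equal weighing of clusters, leaving out shared barcodes and the restriction to cells without keratin UMIs were set after seeing the data. TMM factors came from edgeR 4.0.16 (R 4.3.3). Sequences are from RefSeq promoter windows on GRCm38.p6, and gene positions from GENCODE on GRCm38.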

Additional observations from a re-analysis of the deposited data

Results flagged for a closer look

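These differences rest on 1 library per group and were not tested. At 3 weeks against control, Dnajb1 was 1.70 times control in T or natural killer-like cells and 0.770 times control in bulge-like cells, with counting intervals on opposite sides of 1. In the same comparison Hspa1b stood at 2.26 in T or natural killer-like cells and 0.792 in cycling keratinocyte-like cells. Hspb1 stood at 2.49 in T or natural killer-like cells and 0.962 in bulge-like cells at 3 weeks against control, and at 2.87 in fibroblast-like cells and 0.873 in basal-like keratinocytes at 2 weeks against control. Between the knockouts, 3 weeks against 2 weeks, Hspb1 had a ratio of 0.568 in Schwann-like cells and 1.44 in basal-like keratinocytes. The Schwann-like value was 0.886 as a mean over cells and 0.786 without the 1% of cells with the highest level. In the 2-week Schwann-like cells without a keratin UMI, Hspb1 stood at 101 CPM (9 UMIs), against 833 CPM in all cells of that class.

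Hsph1 differed in direction between both dermal classes in the class sums, with 1.85 in dermal papilla or sheath-like cells and 0.481 in fibroblast-like cells at 3 weeks against 2 weeks. The value of 0.481 was not shared by both fibroblast-like clusters. The cluster led by Coch, Fmod and Tnmd had 43.7 CPM at 3 weeks against 128 CPM at 2 weeks, and that led by Col1a2 and Col1a1 40.8 against 27.6 CPM. Against control at 3 weeks Hsph1 had 0.621 in fibroblast-like cells and 1.26 in dermal papilla or sheath-like cells. The value of 1.26 turned to 0.819 as a mean over cells, 0.785 without the 1% of cells with the highest level and 0.7004 in thinned cells. Under the same 3 settings the value of 1.85 became 0.934, 0.950 and 0.941.

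Outside the cells compared, the 1576 barcodes of Piezo1iKO at 2 weeks that were left out held 2635 CPM of Hspb1, above the 1623 CPM in the 722 barcodes left out of control, and the cells kept had 3183 CPM in Piezo1iKO at 2 weeks and 2074 CPM in control. Predicted doublets carried most of this value. The 301 doublets of Piezo1iKO at 2 weeks held 12812 of the 14346 left-out UMIs, at 3093 CPM, against 2143 CPM in the 123 doublets of control. Barcodes with a mitochondrial share of at least 15% stood at 1009 CPM in Piezo1iKO at 2 weeks and 389 CPM in control, and those with fewer than 500 genes at 1307 CPM in Piezo1iKO at 2 weeks and 458.5 CPM in control.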

How the results depend on the processing

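Counts of pairs past 1.5-fold were small, so settings moved them. For 2 weeks against control the count of higher pairs (1) became 0 with stricter cell filters, with no doublet removal, with the lists kept among the clustering genes or with clusters weighed equally (under the first 3 of these, fibroblast-like cells were too few at 2 weeks to be compared), 2 with TMM, with no filter on low counts or with a mean over cells, and 3 with thinned cells or without the top 1% of cells. The count of lower pairs (0) became 1 with TMM or Leiden resolution 2. For 3 weeks against control the 10 higher pairs lay between 9 and 15 in all settings. The 15 came from the total without ribosomal, mitochondrial, Malat1 and Gm42418 counts. The 3 lower pairs became 5 with the lists kept or each library clustered alone, 6 with thinned cells and 1 with clusters weighed equally. For 3 weeks against 2 weeks the 1 higher pair became 3 with no doublet removal, 5 with each library alone and 0 with a mean over cells or without the top 1%, and the 2 lower became 0 with stricter filters or no doublet removal, 1 with the lists kept and 4 with each library alone or without the top 1%. The ratio of Hsph1 in dermal papilla or sheath-like cells at 3 weeks against 2 weeks (1.85) reversed to 0.934 with a mean over cells, 0.941 with thinned cells and 0.950 without the top 1%. The cause was not tested. TMM shifted the median of all genes in fibroblast-like cells by -0.21 at 2 weeks and -0.19 at 3 weeks against control on the log2 scale. No paired analysis was possible because each group has 1 library. Few UMIs limit Hsph1, which reached the level needed for a ratio in 2 classes.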
